A study of Homo sapiens with 8 samples.

Results

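DLD1, an established human colorectal cancer cell line, was transfected with 1 of 2 siRNAs that target UHRF1, siUHRF1-1 (siRNA 1) or siUHRF1-2 (siRNA 2), or with a control siRNA (siCONT). After 48 h the cells received ethanol (mock) or 300 nM trichostatin A (TSA) for another 24 h. The data compared here are 4 of the 8 gene expression arrays of the study, 1 for each UHRF1 siRNA under each agent, so that siRNA 2 was set against siRNA 1 once under mock and once under TSA. The remaining 4 arrays were siCONT cells, 2 per agent, and served to show where each siRNA stood relative to control cells and how far repeat arrays differed. All cells were of 1 line, depletion was transient, and no array of a UHRF1 siRNA was repeated under the same agent. The question was which transcripts differed between both siRNAs in the same direction under mock and under TSA.

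UHRF1 is a nuclear protein that binds hemimethylated DNA behind the replication fork and brings in DNMT1, the enzyme that copies methylation onto the new strand. TSA inhibits histone deacetylases and raises histone acetylation. An siRNA guides the cleavage of transcripts that pair with its whole guide strand, and it can also lower transcripts that pair only with its seed, which is why knockdown studies use more than 1 siRNA for a target. The siRNAs themselves are known here only by name, so no sequence of theirs was set against any transcript.

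Signal is given as a level, the log2 of the processed signal minus that array's 75th percentile, so that a difference of 1 between arrays is 2-fold. Of the 50599 probes, 43.3% to 48.0% were well above background on an array. All 8 arrays lay on 1 slide. Both siRNA 1 arrays were in slide column 3 and both siRNA 2 arrays in column 4, so the siRNA, its transfection and the slide column cannot be told apart. The 11 colonic epithelium markers were above background on all 8 arrays. Of the markers of other cell types, 0 to 4 of 7 fibroblast and 2 to 3 of 5 leukocyte markers were above background on an array. So were 0 to 2 of 4 endothelium and 1 to 2 of 4 neuron markers. The 4 fibroblast markers were on the siRNA 2 TSA array, against 2 on that of siRNA 1. COL1A2, COL3A1, PTPRC, CD3E, PECAM1 and KDR did not clear background on any array.

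UHRF1 itself was lower than in siCONT cells with both siRNAs, and lowest with siRNA 2 under either agent. The probe at chr19:4962065-4962124 (hg19, as for all positions here) had levels of 1.98 and 2.01 in siCONT cells under mock, 0.34 with siRNA 1 and -0.02 with siRNA 2. Under TSA the levels were 1.04 and 1.01 in siCONT cells, -1.55 with siRNA 1 and -2.14 with siRNA 2. The UHRF1 signal left with siRNA 1 was thus 31.9% of siCONT under mock and 16.7% under TSA, against 24.8% and 11.1% with siRNA 2. The difference of siRNA 2 minus siRNA 1 was -0.36 under mock and -0.59 under TSA, and it did not pass the test (-0.47, SE 0.23, limma with Benjamini-Hochberg adjustment, adjusted p = 0.472). In a fit over all 8 arrays, where the siCONT arrays set most of the spread, the limma adjusted p was 0.0474, still at less than 2-fold. A second UHRF1 probe (chr19:4960895-4960954) was also lower with siRNA 2, by -0.20 under mock and -1.18 under TSA, but it was not well above background on the TSA arrays of either siRNA and was not tested.

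Between the siRNAs, 22472 probes could be tested, those that cleared background with 1 or both siRNAs under mock and TSA alike. A call required an adjusted p below 0.05 in a limma fit paired by agent and a fitted difference of at least 2-fold. The fit called 96 probes (0.427% of those tested), of which 50 were higher (0.222%) and 46 lower (0.205%) with siRNA 2, in 71 named genes. All 96 were at least 2-fold apart in the same direction under both agents. The call is made from the same pairs and penalizes disagreement between them, so this agreement is built in and is not further evidence. As a plain description, 319 probes (1.42%) were at least 2-fold apart in the same direction in both pairs, 172 higher (0.765%) and 147 lower (0.654%) with siRNA 2. The balance of directions depended on the scaling: with arrays scaled to their medians, which moved the median fitted difference of all probes from 0.01 to -0.11, 34 probes were called higher and 55 lower, and 130 and 201 were 2-fold apart. With normexp background correction, 79 were called higher and 124 lower, and 30 and 63 were 2-fold apart. Quantile normalization left 4 calls, 1 higher and 3 lower, and a fit without the pairing by agent left none.

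Repeat control arrays gave far fewer such probes. Between siCONT array 2 and array 1, fitted in the same way over 21635 probes, limma called 0 (0.0%), with 25 at an unadjusted p below 0.05 and 2-fold against 836 between the siRNAs. The control fit had a prior of 1.51 degrees of freedom, against 6.56 between the siRNAs, so these counts by p are not like for like. In both agents, 14 siCONT probes (0.0647%) were 2-fold apart in the same direction. The labels do not say whether the siCONT arrays came from separate cultures, so their spread may be technical only. Differences within a single agent were more common: 1706 probes (7.59%) were 2-fold apart between the siRNAs under mock, 990 higher (4.41%) and 716 lower (3.19%) with siRNA 2. Under TSA there were 1047 (4.66%), 538 higher (2.39%) and 509 lower (2.27%), and the 319 shared in direction were 18.7% of the first and 30.5% of the second. A further 21 probes (0.0934%) were 2-fold apart in opposite directions. Across the tested probes, which are not independent of each other, the mock and TSA differences correlated with Pearson's r = 0.35 and Spearman's rho = 0.27. The same correlation for the siCONT pairs was r = 0.13.

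**Figure D1:**
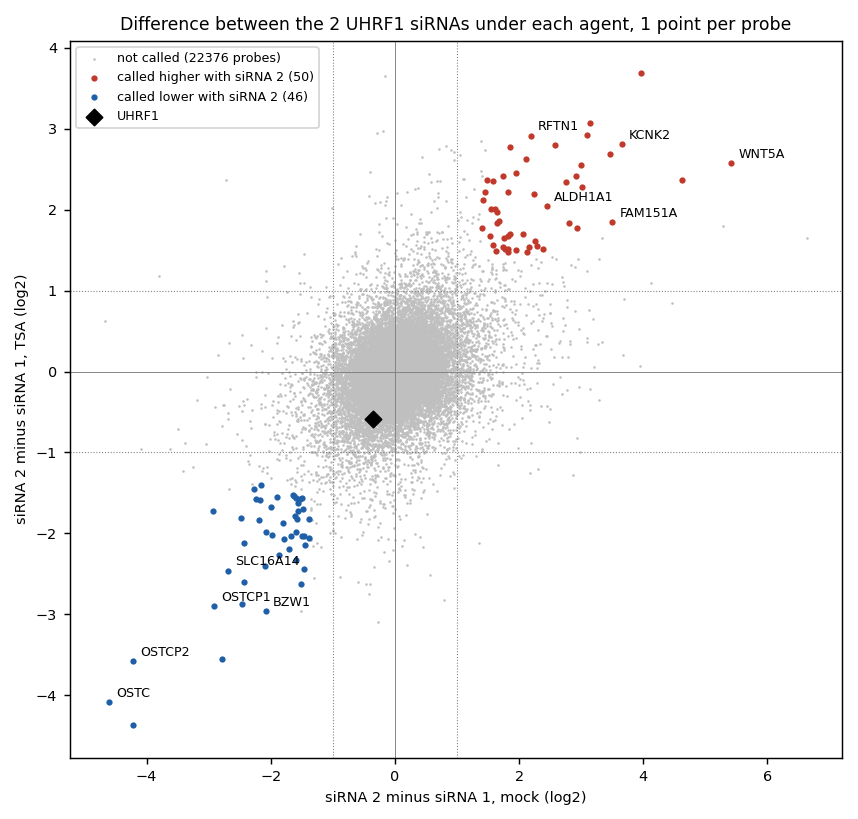
Difference of siRNA 2 minus siRNA 1 under mock (horizontal, log2) against that under TSA (vertical, log2), 1 point per tested probe, with the 50 probes called higher in red, the 46 called lower in blue and UHRF1 as a black diamond. OSTC and its copies lie at the far lower left, at -2.90 or below on both axes, and UHRF1 lies close to the origin at -0.36 and -0.59.

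The largest fitted difference was in OSTC, a subunit of the oligosaccharyltransferase complex that attaches N-glycans to proteins entering the endoplasmic reticulum. OSTC levels were 3.82 and 3.95 in siCONT cells and 4.03 with siRNA 1 under mock, and -0.57 with siRNA 2. Under TSA they were 3.85 and 3.91 in siCONT cells, 3.45 with siRNA 1 and -0.63 with siRNA 2. The siRNA 2 arrays thus stood apart from all 6 others, 24.4-fold below siRNA 1 under mock and 17.0-fold under TSA (fitted -4.35, SE 0.25, limma adjusted p = 0.00243).

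Probes for processed copies of OSTC fell together with it. The probe named OSTCP2 was lower with siRNA 2 by -4.21 under mock and -3.58 under TSA (limma adjusted p = 0.0035), and that named OSTCP1 by -2.92 and -2.90 (limma adjusted p = 0.00737). A probe without a gene name, A_33_P3255046, at chr1:27312262-27312321 and so close to the OSTCP2 probe, was lower by -4.21 and -4.37 (limma adjusted p = 0.00243). A probe for a near-identical copy can take up OSTC transcript, so it is uncertain whether the copies or OSTC itself gave these signals. The probe sequences of OSTC (chr4:109578716-109578775, plus strand) and OSTCP2 (chr1:27312672-27312731, minus strand) are shown because they read different stretches: the longest run of bases they share is 7 of 60.
OSTC: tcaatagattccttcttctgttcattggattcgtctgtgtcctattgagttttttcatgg
OSTCP2: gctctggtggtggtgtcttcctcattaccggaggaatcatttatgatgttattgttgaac
The other subunits of the same complex were chosen after the OSTC values were seen. Over 13 tested probes of 10 of them, 8 were lower and 3 higher with siRNA 2 under both agents, with medians of -0.30 under mock and -0.37 under TSA. None was called or 2-fold apart in both pairs, and fitted differences ran from -0.63 in RPN1 to 0.18 in OST4. The catalytic subunits STT3A and STT3B had fitted differences of -0.13 and -0.55.

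Several other well expressed transcripts were near siCONT with siRNA 1 and clearly lower with siRNA 2. BZW1, an eIF5-like regulator of translation initiation, had levels of 4.15 and 4.16 in siCONT cells, 4.30 with siRNA 1 and 2.22 with siRNA 2 under mock, and 4.31, 4.33, 3.80 and 0.85 under TSA (fitted -2.52, SE 0.28, limma adjusted p = 0.0238). A second BZW1 probe showed a like difference (-2.67, SE 0.24, limma adjusted p = 0.00997), but the third was lower by only -0.79 and -0.70 and did not pass (limma adjusted p = 0.226). All 3 were lower with siRNA 2 under both agents, by unequal amounts. The 2 probes of its relative BZW2 differed by 0.12 to 0.31 and did not pass.

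APIP, an enzyme of the methionine salvage pathway, had levels of 0.97 and 1.01 in siCONT cells, 0.99 with siRNA 1 and -1.11 with siRNA 2 under mock. Under TSA the APIP levels were 0.41, 0.33, -0.11 and -2.51 in the same order (fitted -2.25, SE 0.24, limma adjusted p = 0.0171). FAM174A, a membrane protein gene, was at 0.96 with siRNA 1 and -0.90 with siRNA 2 under mock and at 0.63 and -1.64 under TSA (fitted -2.07, SE 0.24, limma adjusted p = 0.0284). In APIP and FAM174A, both siRNA 2 arrays lay below all 6 others. MREG, which acts in organelle transport, was at 1.34 and -0.74 under mock and at 0.80 and -1.18 under TSA (fitted -2.03, SE 0.23, limma adjusted p = 0.0252), while its second probe differed by only -0.38 and -0.53.

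Among the glutathione S-transferases of the mu class, which conjugate glutathione to electrophiles, GSTM3 and GSTM1 fell and GSTM2 and GSTM4 did not pass. GSTM3, one of the brightest transcripts here, was at 7.36 and 7.40 in siCONT cells, 6.75 with siRNA 1 and 4.96 with siRNA 2 under mock, and at 7.51, 7.53, 7.42 and 5.35 under TSA (fitted -1.92, SE 0.24, limma adjusted p = 0.0339). GSTM1 differed by -1.56 and -1.72 (limma adjusted p = 0.0453). The differences were 0.20 and -0.45 for GSTM2 and 0.41 and 0.22 for GSTM4. These genes are related in sequence, and whether their probes share signal was not tested.

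SERTAD4 and SLC16A14, a member of the monocarboxylate transporter family, were not well above background on either siRNA 2 array. Their bounds are at least 1.84-fold lower for SERTAD4 (limma adjusted p = 0.0171) and at least 1.38-fold lower for SLC16A14 (limma adjusted p = 0.00997). Both bounds are under the 2-fold minimum of a call, so a 2-fold difference is not established for either gene. Of the 71 genes with a called probe, 43 had 1 tested probe and 28 had several. In 10 of those 28 every tested probe was 2-fold apart in both pairs, and in the other 18 at least 1 probe was not, as in MAGI1, MAPK8, STAG3 and SIM2, which were picked as examples after their values were seen. A call on 1 probe therefore did not always extend to the whole gene.

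**Figure D2:**
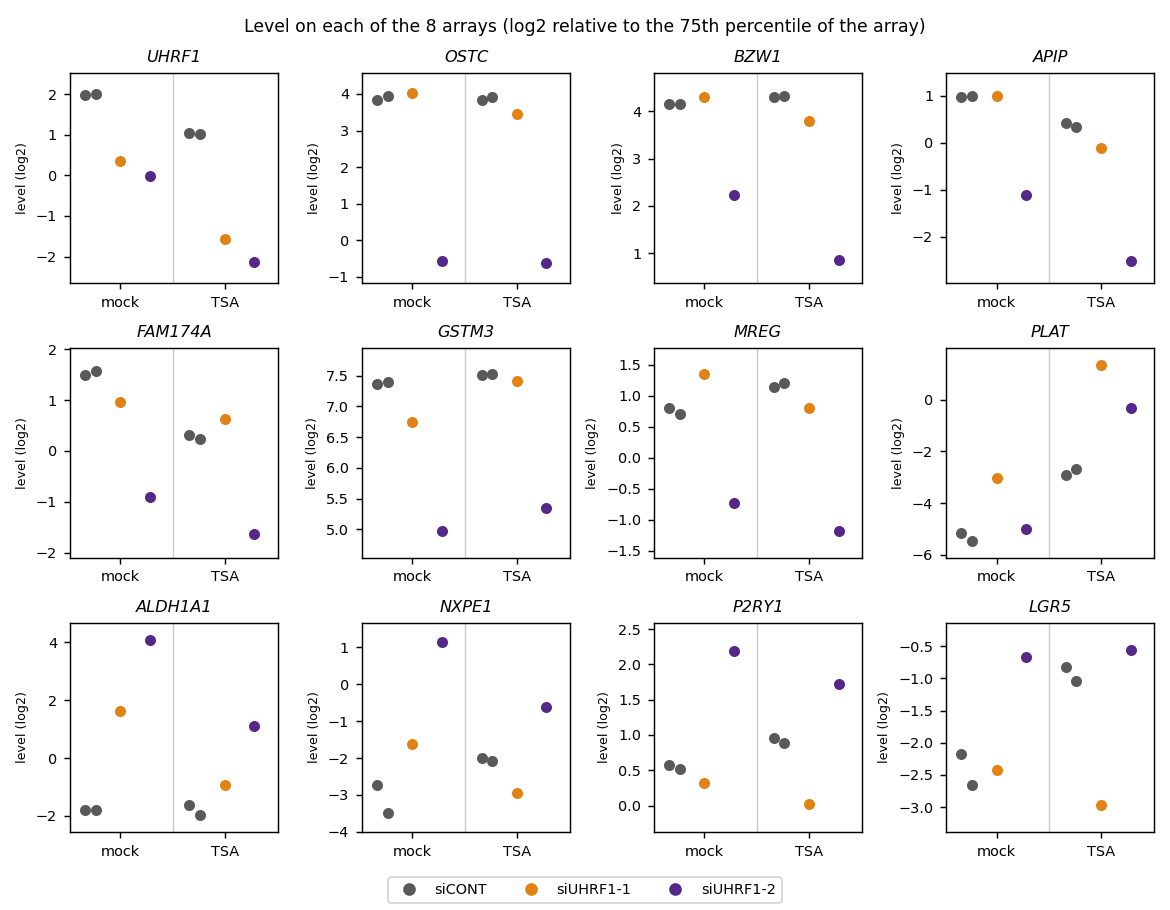
Levels of 12 genes (log2, minus the 75th percentile of each array) on each of the 8 arrays, siCONT in grey, siUHRF1-1 in orange and siUHRF1-2 in purple, with mock to the left and TSA to the right of each panel. OSTC, BZW1, APIP and MREG were near siCONT with siRNA 1 and low with siRNA 2, PLAT was raised further with siRNA 1, and ALDH1A1 and P2RY1 were highest with siRNA 2 under both agents.

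Small RNAs of the nucleolus and Cajal body, which guide chemical modification of ribosomal and spliceosomal RNA, gave 9 of the 147 lower probes and none of the higher ones. They were grouped after their values were seen. Over their 239 tested probes, 9 (3.77%) were 2-fold lower with siRNA 2 in both pairs, against 0.654% of all probes, and 6 of the 9 were called. SCARNA13 was at 1.83 with siRNA 1 and -0.15 with siRNA 2 under mock and at 1.79 and -0.23 under TSA (differences of -1.98 and -2.02, limma adjusted p = 0.0265). SNORA79 was at 0.55 and -1.13 under mock and at 0.67 and -1.36 under TSA (limma adjusted p = 0.0405). Both probes of SCARNA16 were called, with fitted differences of -1.72 and -1.75 (limma adjusted p = 0.0499 and 0.0457). SCARNA12 was called at -1.58 (limma adjusted p = 0.0457), whereas SCARNA14, SCARNA20 and SNORA67 had fitted differences of -1.32, -1.69 and -1.34 without passing.

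Their position relative to siCONT was not uniform. For SCARNA13 the TSA levels in siCONT cells were 0.84 and 0.73, so siRNA 1 was above and siRNA 2 below control. For SNORA12 1 probe was called (limma adjusted p = 0.00925) and at least 6.42-fold lower with siRNA 2, while the other differed by -0.35 and -1.06. Most of the family did not share the difference: its median was 0.15 under mock and -0.20 under TSA.

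In another set of genes that were lower with siRNA 2, siRNA 1 lay above siCONT under both agents, while siRNA 2 lay above it, near it or below it. PLAT, the tissue plasminogen activator, was at -5.14 and -5.47 in siCONT cells, -3.02 with siRNA 1 and -5.02 with siRNA 2 under mock, and at -2.90, -2.67, 1.35 and -0.32 under TSA (fitted -1.84, SE 0.24, limma adjusted p = 0.0405). PLAT was not well above background on 1 of the siRNA 2 arrays. CYSRT1, picked after its values were seen, was called on both probes, at -1.59 and -1.70 (limma adjusted p = 0.0458 and 0.0422). KLK7, a kallikrein protease, was at -1.10 and -1.24 in siCONT cells, -0.48 with siRNA 1 and -2.67 with siRNA 2 under mock, so that siRNA 2 was further from control than siRNA 1. Under TSA the KLK7 level was 1.71 with siRNA 1 and -0.12 with siRNA 2, close to siCONT (limma adjusted p = 0.0305). SPNS2, a sphingosine 1-phosphate exporter, was at 2.55 and 0.75 under mock and at 3.51 and 1.64 under TSA (limma adjusted p = 0.0366). With siRNA 2, SPNS2 lay below its siCONT levels of 1.52 and 1.69 under mock and of 2.52 and 2.46 under TSA, whereas with siRNA 1 it lay about 1 log2 unit above them.

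On the higher side, the clearest well measured gene was ALDH1A1, which oxidizes retinaldehyde to retinoic acid. ALDH1A1 was at -1.80 and -1.79 in siCONT cells, 1.63 with siRNA 1 and 4.08 with siRNA 2 under mock, and at -1.61, -1.97, -0.94 and 1.10 under TSA. It was thus above siCONT with both siRNAs and further above with siRNA 2, 5.46-fold over siRNA 1 under mock and 4.12-fold under TSA (fitted 2.25, SE 0.24, limma adjusted p = 0.0195). The second ALDH1A1 probe was called as well (1.80, SE 0.26, limma adjusted p = 0.0457). P2RY1, a receptor for extracellular ADP, was at 0.32 with siRNA 1 and 2.18 with siRNA 2 under mock and at 0.03 and 1.72 under TSA (fitted 1.78, SE 0.23, limma adjusted p = 0.0422), and all 3 of its probes were 2-fold higher in both pairs.

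LGR5, the R-spondin receptor that marks crypt stem cells, was at -2.42 with siRNA 1 and -0.68 with siRNA 2 under mock and at -2.97 and -0.56 under TSA (fitted 2.08, SE 0.26, limma adjusted p = 0.0366). Its siCONT levels were -2.17 and -2.65 under mock and -0.82 and -1.04 under TSA, so siRNA 2 was above control under mock and siRNA 1 below control under TSA. NXPE1 was at -1.62 and 1.14 under mock and at -2.95 and -0.60 under TSA (fitted 2.55, SE 0.24, limma adjusted p = 0.0113). CTSO, a lysosomal cysteine protease, was at 0.07 and 1.88 under mock and at -0.71 and 0.96 under TSA (limma adjusted p = 0.0422). ERP27, a chaperone-like protein of the endoplasmic reticulum, differed by 2.80 and 1.84 (limma adjusted p = 0.0366).

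The remaining named genes that were higher with siRNA 2 were dim on at least 1 siRNA 1 array. WNT5A, a non-canonical Wnt ligand, was at -5.80 with siRNA 1 and -0.38 with siRNA 2 under mock and at -0.46 and 2.12 under TSA (limma adjusted p = 0.0453). KCNK2, a potassium channel, was at -5.79 and -2.13 under mock and at -2.53 and 0.28 under TSA (limma adjusted p = 0.00925). RFTN1, a lipid raft protein, was at -4.64 and -2.46 and at -1.78 and 1.13 (limma adjusted p = 0.0171). In WNT5A, KCNK2, RFTN1, KRCC1 and FAM151A, 1 of the siRNA 1 arrays was well above background. The fructose transporter gene SLC2A5 and PLEKHS1 were on neither, which gives at least 4.10-fold for SLC2A5 and at least 3.21-fold for PLEKHS1 (limma adjusted p = 0.00925 for each). DEFB131B, a beta-defensin gene, was also on neither and was at least 1.54-fold higher (limma adjusted p = 0.0161). That bound is under the 2-fold minimum of a call, so a 2-fold difference in DEFB131B is not established.

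Set against siCONT, siRNA 2 departed alone for more of these probes than siRNA 1 did. A siRNA was said to depart from siCONT where it was at least 2-fold away in the same direction under both agents. Of the 147 probes lower with siRNA 2, siRNA 2 alone departed, downward, for 63 (42.9%), siRNA 1 alone departed, upward, for 20 (13.6%), both lay above siCONT for 8 and neither departed for 56. Of the 172 higher probes, siRNA 2 alone departed, upward, for 76 (44.2%), siRNA 1 alone, downward, for 8, both lay above siCONT for 2 and neither departed for 86. For the lower and the higher probes alike, the direction of a lone departure follows from how they were selected, and only the counts were open. No probe had the siRNAs 2-fold from siCONT in opposite directions. Over all 22472 tested probes, siRNA 2 departed alone for 622, 374 above and 248 below siCONT, and siRNA 1 alone for 211, 166 above and 45 below. Both departed together for 335, of which 323 were above siCONT and 12 below. The siRNAs share the siCONT arrays in this count, and they moved with the processing. Median scaling turned the 63 into 101 and the 76 into 47, normexp background correction turned them into 39 and 7, and probes above background on all 4 arrays gave 55 and 37.

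Of all tested probes, 45 had siRNA 1 alone below siCONT. The 8 of them that were 2-fold higher with siRNA 2 in both pairs are the counterpart of OSTC for siRNA 1. These 8 were named after their values were seen. The brightest were EIF4EBP2, a repressor of cap-dependent translation, and TMBIM6, a channel-like protein of the endoplasmic reticulum. EIF4EBP2 was at 4.81 and 4.84 in siCONT cells, 3.64 with siRNA 1 and 5.05 with siRNA 2 under mock, and at 5.05, 5.05, 2.85 and 5.27 under TSA (fitted 1.91, SE 0.29, limma adjusted p = 0.0511). TMBIM6 was at 7.43, 7.41, 6.16 and 7.28 under mock and at 7.64, 7.60, 5.10 and 7.48 under TSA (limma adjusted p = 0.0793), while its other probe differed by only 0.42 and 0.45. Both missed the threshold, and in both siRNA 2 was within 0.3 log2 units of siCONT. The others were ARHGAP28, HNMT, ERLIN2, DENND5B, EDEM3 and PRICKLE1.

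**Figure D3:**
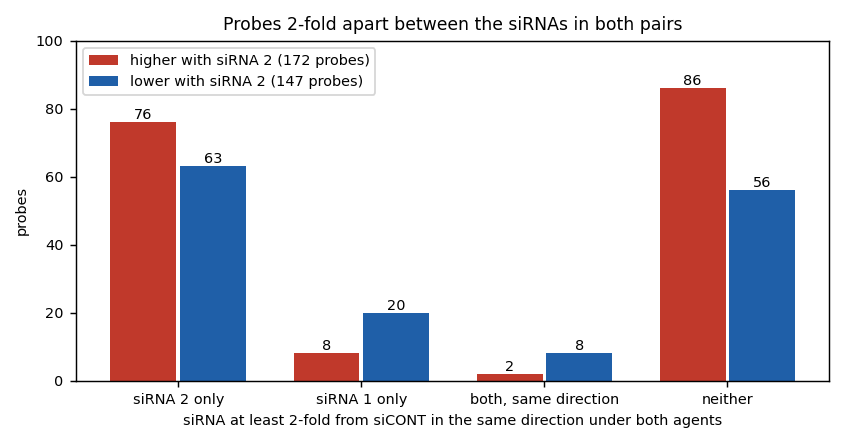
Number of probes 2-fold apart between the siRNAs in both pairs, by which siRNA was itself at least 2-fold from siCONT in the same direction under both agents, with probes higher with siRNA 2 in red (172) and lower in blue (147). The siRNA 2 only bars (76 and 63) exceed the siRNA 1 only bars (8 and 20) in both directions.

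Of the gene lists examined, the genes of the integrated stress response, which ATF4 switches on when amino acids run short or translation initiation is blocked, had the highest share of members lower with siRNA 2 under both agents, among lists with at least 9 tested members. Of 24 tested members, 21 were lower under both agents and 1 was higher, with a median difference of -0.70 under mock and -0.49 under TSA. Over all tested probes, 28.3% were lower and 29.1% higher under both agents, with medians of 0.05 and -0.03. None of the 24 was called, and 2 were 2-fold lower in both pairs. ASNS, which makes asparagine, was at 6.19 with siRNA 1 and 4.93 with siRNA 2 under mock and lower by -1.35 under TSA from 8.35 with siRNA 1 (fitted -1.31, SE 0.23, limma adjusted p = 0.0672). DDIT4, an inhibitor of mTORC1, was at 6.20 and 3.87 under mock and at 3.79 and 2.76 under TSA (limma adjusted p = 0.0901). CHAC1, ATF3, CEBPB and PSAT1 were lower under both agents without passing, and ATF5 alone was higher, by 1.79 under mock and 0.06 under TSA. Relative to siCONT, the median of the list was -0.13 with siRNA 1 and -0.76 with siRNA 2 under mock, and -1.02 and -1.39 under TSA. The count of 21 lower members stood under each of the scalings tried. The count of members 2-fold lower in both pairs fell from 2 to 1 in all of them but the series matrix values.

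**Figure D4:**
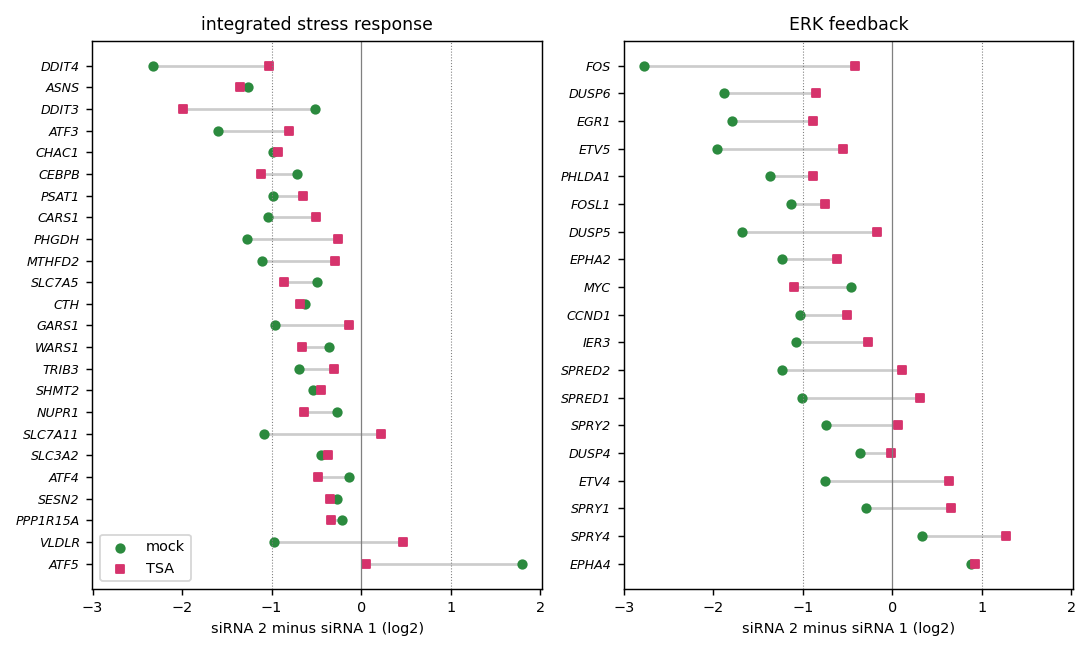
Difference of siRNA 2 minus siRNA 1 (log2) for each tested gene of the integrated stress response list (24 genes) and the ERK feedback list (19 genes), mock as green circles and TSA as pink squares, with dotted lines at a 2-fold difference. All but 1 stress response gene lay below 0 under mock, and ERK genes such as FOS and DUSP6 were further apart under mock than under TSA.

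ERK feedback genes, which ERK signalling induces and many of which restrain it, differed mainly under mock. Of 19 tested, 17 were lower with siRNA 2 under mock and 12 under TSA, with medians of -1.07 and -0.28, and none was called. DUSP6, a phosphatase of ERK, was at 5.69 and 3.80 under mock and at 5.80 and 4.95 under TSA (limma adjusted p = 0.115). EGR1 was at 3.84 and 2.05 under mock and at 2.53 and 1.64 under TSA (limma adjusted p = 0.108), and FOS differed by -2.77 under mock and -0.41 under TSA. EPHA4 was higher with siRNA 2, by 0.88 and 0.92.

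Of the cell cycle lists, that of G2/M genes showed a like dependence on the agent. All 40 G2/M genes were lower with siRNA 2 under mock, by between -0.18 and -1.85, with a median of -0.60. Under TSA 11 of the 40 were lower and the median was 0.23. ANLN, a cytokinesis scaffold, was at 2.06 with siRNA 1 and 0.21 with siRNA 2 under mock and at -0.22 and -0.50 under TSA, and KIF20A, a mitotic kinesin, differed by -0.85 under mock and 0.86 under TSA. None of the G2/M genes was called or 2-fold apart in both pairs. Relative to siCONT the G2/M median was -0.14 with siRNA 1 and -0.84 with siRNA 2 under mock, and -1.70 and -1.49 under TSA.

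Of 45 tested S phase genes, 27 were lower with siRNA 2 under both agents and 4 were higher, with medians of -0.21 and -0.16. MCM5 and MCM10, parts of the replication machinery, differed by -0.77 and -0.82 and by -0.71 and -0.999, and neither passed. Glycolysis and hypoxia genes followed the G2/M pattern, with 24 of 26 lower under mock and 13 under TSA, at medians of -0.87 and 0.01, VEGFA being lower under both agents by -1.47 and -0.96. All 10 tested metallothionein genes were higher under mock and lower under TSA, at medians of 0.35 and -0.29, and none was 2-fold apart in both pairs. Whether the probes of this gene family share signal was not tested, so the 10 may not be independent of each other. With median scaling 8 of the 10 were higher under mock.

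**Figure D5:**
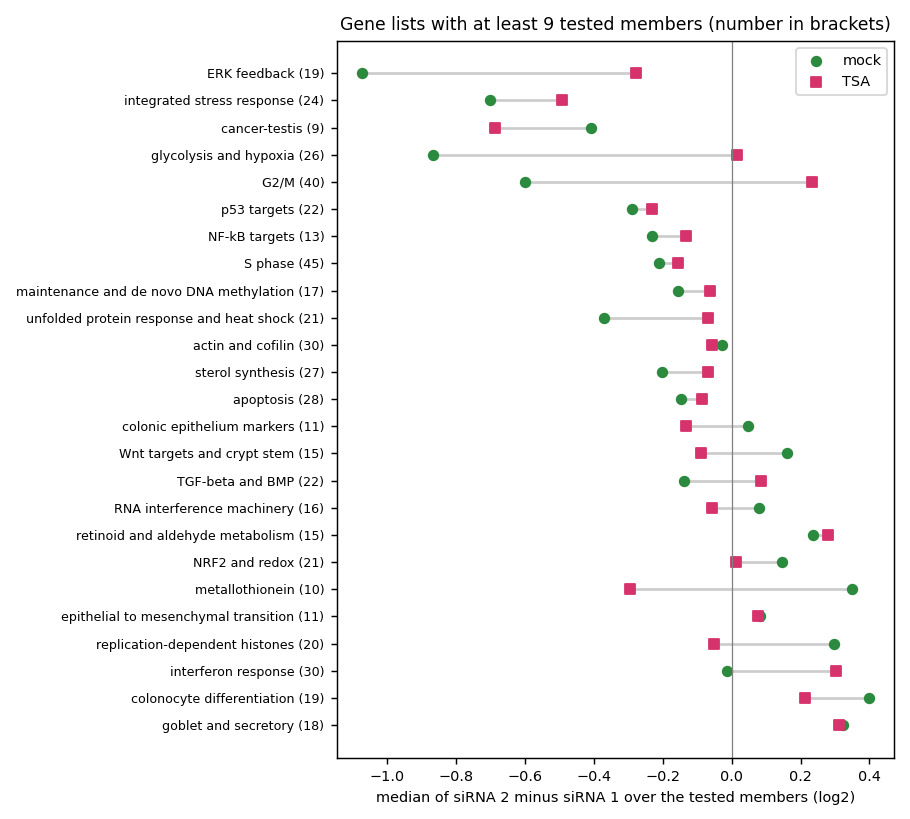
Median difference of siRNA 2 minus siRNA 1 (log2) over the tested members of each gene list with at least 9 of them, mock as green circles and TSA as pink squares joined by a line, with the number of members in brackets. ERK feedback, integrated stress response and cancer-testis genes lie at the left under both agents, with ERK feedback genes further left under mock than under TSA. G2/M and glycolysis genes lie at the left under mock only, and goblet and colonocyte genes at the right.

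Of 30 tested interferon response genes 2 were called, against 0.222% of all probes called higher. They were IFIT2 and IFIT3, neighbouring interferon-induced genes of the antiviral response. IFIT2 was at -1.85 with siRNA 1 and -0.21 with siRNA 2 under mock and at -2.28 and -0.31 under TSA (fitted 1.80, SE 0.24, limma adjusted p = 0.0422). Its 4 siCONT levels lay between -2.64 and -1.25. IFIT3 was not well above background on either siRNA 1 array and was at least 2.03-fold higher with siRNA 2 (limma adjusted p = 0.0247). IFIT1, the next member of the cluster, differed by 0.55 and 0.71 and did not pass (limma adjusted p = 0.31). Over the list, 15 genes (50%) were higher and 5 (16.7%) lower under both agents, against 29.1% and 28.3% of all tested probes, with medians of -0.01 and 0.30, and OASL was lower by -1.39 and -0.66. With median scaling the 15 became 10 and the mock median became -0.30.

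None of the intestinal differentiation genes was called on the probe chosen for it. Of 18 goblet and secretory genes, 10 were higher and 2 lower under both agents (medians 0.32 and 0.31), and over all tested probes 29.1% were higher and 28.3% lower. AGR3, a secretory protein disulfide isomerase, was at -2.14 and -0.40 under mock and at -4.61 and -3.32 under TSA (limma adjusted p = 0.0539). With siRNA 1 under TSA it lay below the lowest level well above background on that array, -3.47. The TSA difference of AGR3 is therefore not exact and may be under 2-fold. REG4, a secreted lectin, was at 4.93 and 6.62 under mock and at 2.08 and 3.12 under TSA (limma adjusted p = 0.0825), and a second REG4 probe was called (1.56, SE 0.23, limma adjusted p = 0.0471). Of 19 colonocyte genes, 10 were higher and 3 lower under both agents, although their median relative to siCONT under mock was 0.88 with siRNA 1 and 0.65 with siRNA 2. Of the 11 colonic epithelium markers, 4 were higher and 5 lower (medians 0.05 and -0.13). TSPAN8, a tetraspanin, was at 4.07 and 5.35 under mock and at 3.65 and 5.07 under TSA (limma adjusted p = 0.0646), whereas GUCA2A, which encodes guanylin, was not well above background on either siRNA 2 array and was at least 2.59-fold lower (limma adjusted p = 0.0793). With median scaling the mock medians were 0.04 for goblet and 0.12 for colonocyte genes.

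Single members of other lists were also 2-fold apart in both pairs. INSIG1, which holds back sterol synthesis, was at 3.52 and 2.00 under mock and at -0.20 and -3.15 under TSA (limma adjusted p = 0.0511), while the 27 sterol genes had medians of -0.20 and -0.07. AKR1B10, an aldo-keto reductase of the NRF2 list, differed by 1.35 and 1.95 (limma adjusted p = 0.0511), and its second probe was called (limma adjusted p = 0.0481). RARRES3, named for its response to retinoids, differed by 1.24 and 1.83 and the histone gene HIST1H2BK by 2.01 and 1.18, and neither passed the test. CD68, counted among the leukocyte markers and also a lysosomal protein of other cells, was called lower (-1.70, SE 0.23, limma adjusted p = 0.0422), and CD14 differed by -1.39 and -0.72. The leukocyte-defining PTPRC and CD3E did not clear background on any of the 8 arrays.

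Among lists without a 2-fold member, p53 targets had 12 of 22 members lower and 5 higher under both agents (medians -0.29 and -0.23), with MDM2 higher by 0.56 and 0.49. The DNA methylation list, with UHRF1, the DNMT and TET enzymes and methyl-CpG binding proteins, had medians of -0.16 and -0.06, and the RNA interference machinery, with 16 tested genes, had medians of 0.08 and -0.06. The 9 tested cancer-testis genes had medians of -0.41 and -0.69, with 5 lower and 1 higher under both agents.

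The SNAR RNAs, small non-coding RNAs grouped after their values were seen, were higher with siRNA 2 under both agents in 7 of 8 tested probes, with medians of 1.82 and 0.85. In 2 of them, SNAR-F and SNAR-G1, the difference was at least 2-fold in both pairs, and none was called. SNAR-F was at 0.48 and 2.26 under mock and at 5.23 and 6.57 under TSA (limma adjusted p = 0.0511). SNAR genes are near-identical copies, so their probes are not independent of each other.

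UHRF1 was lower with siRNA 2, though without passing, so the siRNA difference was also set beside the mean change with both siRNAs. To keep arrays separate, the mean change from siCONT under 1 agent, called depletion here, was compared with the siRNA difference under the other. A change made by 1 siRNA alone also enters that mean. OSTC, for example, was under mock -4.46 from siCONT with siRNA 2 and 0.15 with siRNA 1. As siRNA 2 departed alone for 622 probes and siRNA 1 for 211, a shift toward siRNA 2 is partly built in. The shares below therefore cannot tell a stronger depletion from changes made by siRNA 2 alone. The 413 probes at least 2-fold lowered by depletion under mock had a median siRNA difference of -0.23 under TSA, and 69.7% of them were lower with siRNA 2, against 53.5% of all tested probes. The 1362 probes raised under mock had a median of 0.14, and 59.4% of them were higher with siRNA 2, against 46.5%. In the other direction, the 816 probes lowered by depletion under TSA had a median siRNA difference of -0.50 under mock, with 79.8% lower against 45.7%. The 1279 raised under TSA had a median of 0.16, with 57.8% higher against 54.3%. Across probes, which are not independent of each other, the correlation was r = 0.18 (rho = 0.17) for depletion under mock and r = 0.22 (rho = 0.34) for depletion under TSA. Restricted to the 19898 probes that cleared background on every array, siCONT included, it was r = 0.18 (rho = 0.16) and r = 0.36 (rho = 0.38). The siRNA, the UHRF1 level and the slide column moved together between these arrays, and for any given gene they cannot be told apart.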

How the data were processed

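Total RNA of DLD1 cells was labelled with Cy3 and hybridised to 8 Agilent SurePrint G3 Human GE v2 arrays, 1 sample each. The authors deposited scanner output of Feature Extraction 10.7.3.1 (10.7 in the submitters' notes), whose processed intensity is background-corrected and not normalized between arrays. The value table they deposited holds the same intensity (0.995 to 1.005 of it). Probe positions are hg19, per the file headers. Control spots and 212 to 294 outlier spots per array were left out, no spot was saturated, repeat spots were averaged, and 20 probes without a value on an array were dropped.

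Levels were the log2 intensity minus the 75th percentile of the array, which was 137 to 189 in intensity. Symbols were updated through RefSeq accessions for 28170 probes (55.7%), and others kept the name in the files. The 4 siUHRF1 arrays entered a limma 3.58.1 fit (R 4.3.3) with agent as the pair, which leaves 1 residual degree of freedom and a prior of 6.56, so that the call rests largely on the spread over all probes. Tests are two-sided, with Benjamini-Hochberg adjustment over 22472 probes. The pairing by agent follows from the treatment. A bound ("at least") sets the mean of the brighter arrays against the lowest signal well above background. For a gene with a bound, the limma p-value was computed from signals that were not well above background on the dimmer side. Simulated data for this comparison (22472 probes) held 50 changes of 2-fold, 100 of 4-fold (log2 2) and 50 of 16-fold (log2 4). Of these, 10%, 97% and 100% were called, and so were 18 unchanged probes.

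Genes named are the first 15 called in each direction by the smaller of the mock and TSA differences, each by its brightest tested probe, plus list members 2-fold apart in both pairs or with the largest differences. Genes outside this rule are marked in the text as chosen after their values were seen, or are second probes, relatives or list members given for comparison. The comparison, the rule and the lists were chosen with earlier results of these data known. Replicate labels exist only for siCONT, and the siCONT arrays did not enter the main fit. The p-values of that fit measure how far the siRNA difference disagreed between mock and TSA, moderated by the spread over all probes. They do not measure a spread between repeat cultures, and the small number of arrays limits the precision. The alternatives tried were other scalings, background correction, filters, the value table, no pairing, all 8 arrays, an intensity trend, a plain paired test without limma's prior, other fold minimums and each array left out.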

Additional observations from a re-analysis of the deposited data

Results flagged for a closer look

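Between the siRNAs, 21 probes were 2-fold apart in opposite directions under the 2 agents, and the 4 named genes with the largest such differences each way are given here. By the signals as given, each was at least 2-fold apart between the siRNAs in 1 direction under mock and in the other under TSA, and this difference between agents was not tested. The value given is the TSA difference minus the mock difference on the log2 scale.

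Relative to siRNA 1, 4 of these genes were higher with siRNA 2 under mock and lower under TSA. SPANXB2, of a cancer-testis family, changed by -4.149, from 2.87 under mock to -1.27 under TSA. SPANXB2 and FAM90A1 were not well above background with siRNA 1 under mock, so their mock differences, and the changes built on them, are not exact and may be under 2-fold. IFITM10 changed by -3.503, C17orf67 by -3.479 and FAM90A1 by -3.43. The other 4 were lower with siRNA 2 under mock and higher under TSA. BEX5 changed by 5.098, from -2.73 to 2.37, and lay above siCONT with both siRNAs. PLD6, a mitochondrial enzyme of the piRNA pathway, changed by 4.972, from -3.80 to 1.17. BHLHE40, a clock-related repressor, changed by 3.081, and IL33, an epithelial alarmin, by 2.767. IL33 was at 3.07 with siRNA 1 and 1.53 with siRNA 2 under mock and at 0.83 and 2.05 under TSA, all below the siCONT levels of 3.74 to 3.85.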

How the results depend on the processing

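The number of calls depended strongly on the processing. Against 96 calls, quantile normalization gave 4, the series matrix values 29, normexp background 203, the 75th percentile over probes above background on all arrays 281, probes above background on all 4 arrays 304, no filter on dim probes 687, an intensity trend in eBayes 598 and all 8 arrays 440. Leaving out each siUHRF1 array in turn gave 783 to 1303, from 1 remaining pair whose spread came from the siCONT arrays only. Without the pairing by agent (no replicate block) 0 probes were called, and with all 8 arrays and the siCONT replicate number as a replicate block 1 was. A plain paired test on the 2 pairs gave 116 at unadjusted p and 0 after Benjamini-Hochberg. Probes 2-fold apart in both pairs, 319 in the main setting, numbered 93 with normexp background, 185 above background on all 4 arrays, 830 without a filter, 1293 at 1.5-fold and 61 at 3-fold. The cause of these shifts was not tested. All 30 named genes kept their direction in both pairs under every scaling and background setting, and all stayed 2-fold apart in both except under normexp background, where 17 did. None of the 30 calls passed without the pairing, and 2 passed with quantile normalization. For UHRF1 the difference ran from -0.25 to -0.60 over all settings and never reached 2-fold. Its limma adjusted p was 0.0474 with all 8 arrays and 0.0191 to 0.0256 with an array left out, where the spread came mostly or only from siCONT arrays, and above 0.05 in the other settings. Signal near background limits the dim genes.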
